A study of Mus musculus with 2 samples.

Results

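Long TCR β-chain (TRB) CDR3s, of 15 amino acids (aa) or more, were taken from the receptor lists of hepatic CD8αα and CD8αβ T cells. Every listed entry whose best V hit was a TRBV gene, whose best J hit was a TRBJ gene and whose CDR3 had this length was kept, with the conserved first and last residues counted. Each such entry, called a clonotype here, stands for 1 nucleotide CDR3 and the V and J genes assigned to it. Long CDR3s numbered 127 of the 337 TRB clonotypes of CD8αα T cells and 297 of the 915 of CD8αβ T cells, or 424 of 1252 in both. The 210 and 618 shorter TRB clonotypes of the same libraries are called other clonotypes.

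Both cell types were sorted from the liver of TG mice, a model of primary biliary cholangitis on the C57BL/6 background, and their polyA RNA was sequenced in bulk. In TG mice (dnTGFβRII) the Cd4 promoter drives a dominant negative form of the TGF-β receptor II, so T cells of both libraries bear the transgene. By the labels the mice were 10 weeks old, while the study's methods describe somewhat younger mice, and the number of mice is not given in the sources used here. There was 1 library for each cell type, with no library from mice without the transgene among those analysed here. The lists hold receptor sequences and no expression values, so CD8α and CD8β levels could not be used to check the labels.

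The CDR3 is the loop of the TCR β-chain that lies at the join of V, D and J genes and makes much of the contact with the peptide on an MHC molecule. During V(D)J recombination in the thymus, the ends of the segments are trimmed, palindromic (P) bases can be left by the opening of hairpins, and terminal transferase adds bases that no germline segment encodes (N bases). A CDR3 therefore becomes longer when J genes with more bases inside the loop are used, when less is trimmed, when more of the D gene is kept, or when more bases are added.

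The sequences that the results below turn on are the 5 long CDR3s with most reads in each library, numbered from 1 for the largest, and the longest of each. In these sequences, read 5′ to 3′, the capitals mark the bases between the aligned V and J parts. They hold the D gene, any P bases at its ends and the N bases.
CD8αα long clonotype 1 (15 aa, TRBV4, TRBD1, TRBJ2-1): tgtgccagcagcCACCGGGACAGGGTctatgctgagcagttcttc
CD8αα long clonotype 2 (16 aa, TRBV1, TRBD2, TRBJ2-5): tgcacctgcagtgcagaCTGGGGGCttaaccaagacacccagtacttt
CD8αα long clonotype 3 (15 aa, TRBV13-2, TRBD2, TRBJ1-4): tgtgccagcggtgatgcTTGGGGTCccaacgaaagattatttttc
CD8αα long clonotype 4 (16 aa, TRBV13-3, TRBD1, TRBJ1-3): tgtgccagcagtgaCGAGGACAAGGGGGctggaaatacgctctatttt
CD8αα long clonotype 5 (15 aa, TRBV13-1, TRBD2, TRBJ2-7): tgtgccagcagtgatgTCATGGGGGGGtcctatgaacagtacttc
CD8αα, longest, with TRBV17 (18 aa, TRBV17, TRBD2, TRBJ2-7): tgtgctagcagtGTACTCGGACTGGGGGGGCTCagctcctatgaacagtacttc
CD8αα, longest, with TRBV2 (18 aa, TRBV2, TRBD2, TRBJ2-1): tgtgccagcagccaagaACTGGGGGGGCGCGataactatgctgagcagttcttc
CD8αβ long clonotype 1 (16 aa, TRBV12-2, TRBD2, TRBJ2-1): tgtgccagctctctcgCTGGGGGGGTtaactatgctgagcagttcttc
CD8αβ long clonotype 2 (16 aa, TRBV16, TRBD2, TRBJ2-4): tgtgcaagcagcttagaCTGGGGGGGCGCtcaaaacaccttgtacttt
CD8αβ long clonotype 3 (16 aa, TRBV1, TRBD2, TRBJ2-3): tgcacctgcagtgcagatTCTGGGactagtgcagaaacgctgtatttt
CD8αβ long clonotype 4 (15 aa, TRBV16, TRBD2, TRBJ2-4): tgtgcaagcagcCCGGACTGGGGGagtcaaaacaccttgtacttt
CD8αβ long clonotype 5 (15 aa, TRBV14, TRBD1, TRBJ1-6): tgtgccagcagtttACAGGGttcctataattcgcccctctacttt
CD8αβ, longest, with TRBV4 (19 aa, TRBV4, TRBD2, TRBJ2-1): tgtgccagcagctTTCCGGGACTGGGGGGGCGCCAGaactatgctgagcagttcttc

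The germline D genes and the J genes that differed between long and other CDR3s are shown so that these joins can be read against them. They are taken from GENCODE M21 on GRCm38 and lie on chromosome 6, on the plus strand. Capitals mark what lies inside the CDR3, which for a D gene is all of it.
TRBD1, chr6:41533201-41533212: GGGACAGGGGGC
TRBD2, chr6:41542163-41542176: GGGACTGGGGGGGC
TRBJ1-1, chr6:41533864-41533911: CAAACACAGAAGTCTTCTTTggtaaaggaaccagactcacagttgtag
TRBJ1-2, chr6:41534001-41534048: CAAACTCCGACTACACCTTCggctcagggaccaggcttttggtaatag
TRBJ1-4, chr6:41534811-41534861: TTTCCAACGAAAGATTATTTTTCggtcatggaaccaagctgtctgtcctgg
TRBJ2-1, chr6:41542754-41542803: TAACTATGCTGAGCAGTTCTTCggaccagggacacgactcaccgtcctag
TRBJ2-2, chr6:41542957-41543007: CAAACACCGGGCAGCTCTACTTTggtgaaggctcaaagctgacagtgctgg
TRBJ2-3, chr6:41543223-41543271: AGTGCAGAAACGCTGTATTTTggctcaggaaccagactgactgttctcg
TRBJ2-4, chr6:41543362-41543410: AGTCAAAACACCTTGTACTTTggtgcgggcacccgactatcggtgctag
TRBJ2-7, chr6:41543810-41543856: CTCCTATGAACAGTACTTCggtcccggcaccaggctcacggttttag

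The depth behind the long CDR3s was 1060 of 2995 TRB reads in CD8αα T cells and 622 of 1850 in CD8αβ T cells, with a mean of 8.35 and 2.09 reads for each long clonotype. A floor of 3 reads stood for 0.283% of the long reads in CD8αα and 0.482% in CD8αβ T cells. All confidence intervals (CI, 95%, Wilson for shares and Newcombe for differences) and these floors cover counting error only, since no molecular identifiers are described and reads are not independent molecules. With no replicate library, every test compares the lists of these libraries and not the conditions.

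Long CDR3s were 37.7% (CI 32.7 to 43.0) of the clonotypes in CD8αα and 32.5% (29.5 to 35.6) in CD8αβ T cells, a difference of 5.23 percentage points (-0.664 to 11.3) that did not pass Fisher's exact test (p = 0.0923). By reads they were 35.4% (33.7 to 37.1) and 33.6% (31.5 to 35.8), a difference of 1.77 points (-0.993 to 4.50, p = 0.214, Fisher's exact test). Fisher's exact test on reads treats each read as independent, which reads of the same clonotype are not. Its p-values thus cover counting error only and do not weigh the spread between clonotypes. The value by reads moved with single clonotypes. When the largest TRB clonotype of each library, both with shorter CDR3s, was left out, long CDR3s took 45.5% of the reads in CD8αα and 35.4% in CD8αβ T cells, a difference of 10.1 points (7.06 to 13.1, p = 8.65e-11, Fisher's exact test). When instead the largest long clonotype of each was left out, they took 32.0% and 32.1%, a difference of -0.131 point (-2.89 to 2.60, p = 0.949, Fisher's exact test).

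Most long CDR3s lay just above the limit of 15 aa. In CD8αα T cells 81 clonotypes had 15 aa, 33 had 16 aa, 11 had 17 aa and 2 had 18 aa. In CD8αβ T cells these numbers were 189, 82, 22 and 3, with 1 further CDR3 of 19 aa. The length just outside the limit, 14 aa, was the most frequent in both lists, with 105 and 266 clonotypes. Among CD8αα T cells the 15-aa CDR3s took 595 reads and the 14-aa CDR3s 501, and among CD8αβ T cells they took 357 and 519. The mean length of the long CDR3s was 15.5 aa in each library.

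**Figure D1:**
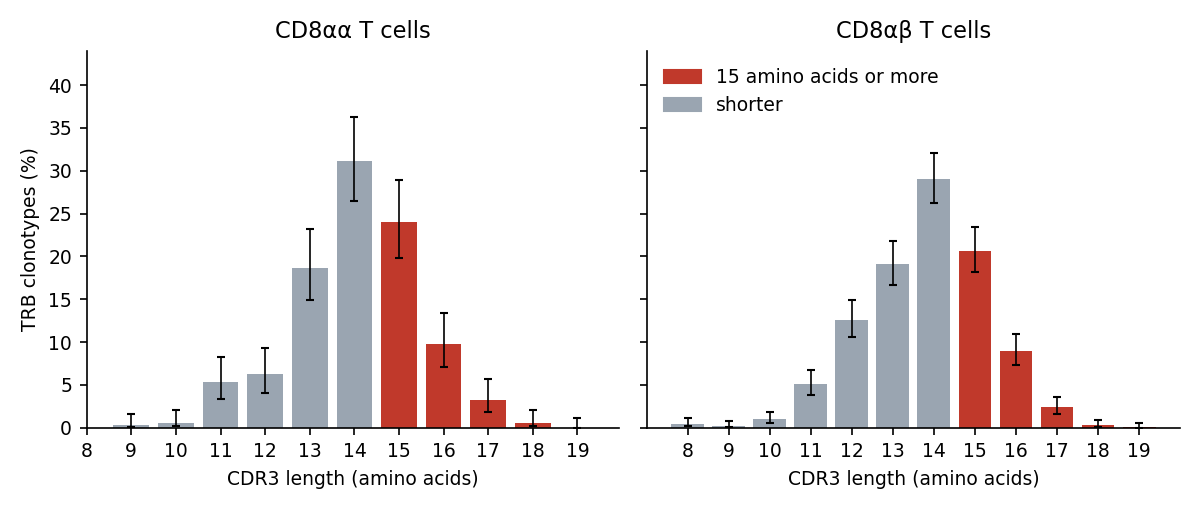
Share of TRB clonotypes (%, y axis) at each CDR3 length in aa (x axis) in the 2 libraries, with long CDR3s in red, shorter ones in grey and 95% Wilson intervals as bars. In both libraries 14 aa is the most frequent length, and the shares fall from 24.0% and 20.7% at 15 aa to 3.26% and 2.40% at 17 aa.

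The V genes of long CDR3s were spread widely. Long clonotypes used 19 of the 21 V genes listed for TRB in CD8αα T cells and 22 of the 24 in CD8αβ T cells. TRBV16 led in both, with 23 long clonotypes (18.1%) and 39 (13.1%). It was followed by TRBV12-2 (14) and TRBV3 (12) in CD8αα T cells and by TRBV12-1 (31) and TRBV13-2 (28) in CD8αβ T cells.

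In CD8αβ T cells, TRBV29 and TRBV15 were less frequent among long CDR3s than among the others. They were 2 of the 19 V genes tested (10.5%), by Fisher's exact test with Benjamini-Hochberg adjustment. The bases kept from V enter the length that splits these classes. The tests of V genes between long and other CDR3s thus do not show V use apart from length. TRBV29 had 4 of 297 long clonotypes (1.35%) and 49 of 618 others (7.93%), a difference of -6.58 points (-9.12 to -3.79, adjusted exact p = 0.000289). TRBV15 had 7 (2.36%) and 43 (6.96%), a difference of -4.60 points (-7.19 to -1.61, adjusted exact p = 0.0289). So only 7.55% of all TRBV29 clonotypes and 14% of all TRBV15 clonotypes of CD8αβ T cells were long. Both genes bring 17 germline bases into the CDR3, the largest number found among the V genes of these lists, and the mean number of bases trimmed from them in other clonotypes was 4.0 for TRBV29 and 3.8 for TRBV15. For the tested V genes with 17 bases that did not pass, this mean went from 2.09 for TRBV1 to 4.63 for TRBV4, a range that holds both values. Whether trimming bears on the differences of TRBV29 and TRBV15 was not tested. TRBV15 (chr6:41141188-41141658) and TRBV29 (chr6:41271394-41271881) each have 2 exons, of which the second encodes the part that enters the CDR3. Among clonotypes of 2 reads or more neither call passed, with differences of -5.74 points for TRBV15 (adjusted exact p = 0.321) and -5.85 points for TRBV29 (0.190). The TRBV15 call was also lost against CDR3s of 13 and 14 aa alone, at -3.99 points (adjusted exact p = 0.116), and at a limit of 16 aa, at -3.05 points (0.650).

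In CD8αα T cells none of the 14 V genes tested between long and other CDR3s (0%) passed Fisher's exact test after adjustment, and 1 did at an unadjusted p under 0.05. This was TRBV16 (chr6:41151740-41152230), with 23 of 127 long clonotypes (18.1%) and 18 of 210 others (8.57%), a difference of 9.54 points (2.21 to 17.7, p = 0.0152, adjusted exact p = 0.212). At a limit of 16 aa in place of 15 aa the TRBV16 difference was 18.6 points and passed (adjusted exact p = 0.0154). In CD8αβ T cells the same gene had 13.1% of long and 8.90% of other clonotypes (adjusted exact p = 0.206). TRBV15 had 9 long and 9 other clonotypes in CD8αα T cells. The difference of the TRBV15 contrast between the libraries had p = 0.00808 in a logistic fit over the clonotypes of both (n = 1252) and 0.145 after adjustment.

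Between the libraries, 0 of the 17 V genes tested among long CDR3s (0%) passed Fisher's exact test after adjustment. At an unadjusted p under 0.05 there were 2, namely TRBV12-1, at 3.94% in CD8αα and 10.4% in CD8αβ T cells, and TRBV15, at 7.09% and 2.36% (adjusted exact p = 0.297 for both).

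J gene use differed between long and other CDR3s of CD8αβ T cells. Each J gene adds its own bases to the length that splits these classes, so the tests below do not show J use apart from length. Of the 12 tested, 8 passed (66.7%), 5 of them more frequent and 3 less frequent among long CDR3s. The largest difference was that of TRBJ2-7, with 33 of 297 long clonotypes (11.1%) and 182 of 618 others (29.4%), or -18.3 points (-23.2 to -12.99, adjusted p = 2.04e-09, Fisher's exact test). TRBJ1-1 (6.06% of long, 13.3% of other, adjusted exact p = 0.00284) and TRBJ1-2 (3.70% and 8.41%, adjusted p = 0.0134) were also less frequent. TRBJ2-1, the J gene with most long clonotypes, had 59 (19.9%) against 69 (11.2%, adjusted exact p = 0.00208), and TRBJ2-2 had 31 (10.4%) against 21 (3.4%, adjusted p = 0.000277). TRBJ2-3 (10.8% and 4.85%) and TRBJ1-4 (7.74% and 2.91%) each had an adjusted p of 0.00351, and TRBJ2-4 (11.8% and 7.28%) was close to the threshold (0.0494). With 2 reads or more the calls of TRBJ1-2 (-4.99 points), TRBJ1-4 (5.43), TRBJ2-1 (4.37) and TRBJ2-4 (3.07) were lost, at a limit of 16 aa those of TRBJ1-2 (-3.61), TRBJ1-4 (2.27), TRBJ2-1 (7.24) and TRBJ2-3 (4.92), and against 13 and 14 aa that of TRBJ2-4 (3.17).

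The J gene brings its own length into the CDR3, so its use is tied in part to the limit that chose the long CDR3s. The 3 J genes that were less frequent among long CDR3s bring the fewest germline bases, 19 for TRBJ2-7 and 20 for TRBJ1-1 and TRBJ1-2. For CD8αβ T cells, the share of clonotypes that were long was 15.3% for J genes with 19 bases, 17.8% with 20, 38.5% with 21, 44.4% with 22 and 58.1% with 23. TRBJ1-6, with 25 bases, had 34.6% (19.4 to 53.8) of its 26 clonotypes among the long ones, and a mean of 3.56 bases trimmed from them. TRBJ2-5, with 21 bases, had 24.7%, against 51.6% for TRBJ2-3 and 43.8% for TRBJ2-4, which bring as many. Across the 12 J genes of this library Pearson's r between germline bases and the share of long CDR3s was 0.610 and Spearman's rho 0.669, as a description over genes that share 1 library.

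In CD8αα T cells none of the 11 J genes tested (0%) passed Fisher's exact test after adjustment, and none had an unadjusted p under 0.05. TRBJ2-7 had 18.1% of long and 26.2% of other clonotypes (difference -8.08 points, -16.6 to 1.29). TRBJ2-1 was again the J gene with most long clonotypes, 27 (21.3%), followed by TRBJ2-7 (23) and TRBJ2-5 (14). The share of clonotypes that were long was 29.5% for J genes with 19 germline bases, 22.9% with 20, 48.5% with 21, 43.8% with 22, 44.1% with 23 and 23.1% (8.18 to 50.3) of the 13 clonotypes with 25. Over 11 J genes r was 0.15 and rho 0.254. The list of CD8αα T cells holds fewer clonotypes, and the TRBJ2-7 difference did not itself differ between the libraries after adjustment (p = 0.0356, adjusted p = 0.179, logistic fit, n = 1252 clonotypes). Among long CDR3s alone, 0 of 12 J genes (0%) passed Fisher's exact test between the libraries, also at an unadjusted p under 0.05. TRBJ2-7 came nearest, at 18.1% in CD8αα and 11.1% in CD8αβ T cells, a difference of 7.0 points (-0.0351 to 15.2).

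**Figure D2:**
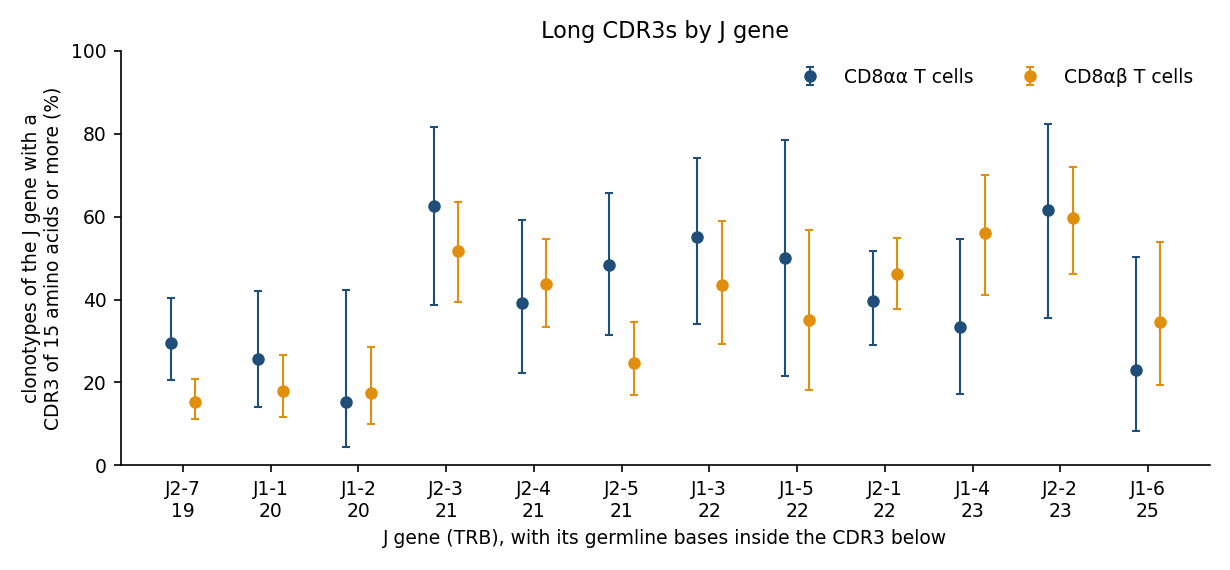
Share of the clonotypes of each J gene whose CDR3 had 15 aa or more (%, y axis), with 95% Wilson intervals, in CD8αα (blue) and CD8αβ T cells (orange), ordered by the germline bases of the J gene inside the CDR3 (below each name on the x axis). In CD8αβ T cells TRBJ2-7, TRBJ1-1 and TRBJ1-2 lie at 15.3%, 18% and 17.5%, and TRBJ2-2 and TRBJ1-4 at 59.6% and 56.1%.

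Read base by base, long CDR3s differed from the others mostly in the stretch between V and J and in how much of the J gene was kept. The parts from V, between V and J and from J sum to the length that chose the clonotypes, so they are given as a description with no test. Long CDR3s of CD8αα T cells held 14.2 ± 2.18 bases from V, 12.2 ± 3.64 between V and J and 20.04 ± 2.87 from J (mean ± SD over 127 clonotypes). Those of CD8αβ T cells held 14.5 ± 2.34, 11.5 ± 3.71 and 20.4 ± 2.76 bases (over 297 clonotypes).

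Against other clonotypes of the same library, long CDR3s of CD8αα T cells were 6.90 bases longer on average, of which 4.05 (58.8%) lay between V and J, 2.38 (34.5%) in J and 0.462 (6.70%) in V. Long CDR3s of CD8αβ T cells were 7.39 bases longer, of which 3.38 (45.7%) lay between V and J, 2.86 (38.6%) in J and 1.16 (15.7%) in V. The J genes used by long CDR3s had on average 0.849 more germline bases in CD8αβ T cells and 0.284 more in CD8αα T cells. Their V genes had 0.163 and 0.0115 more in CD8αα and CD8αβ T cells.

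**Figure D3:**
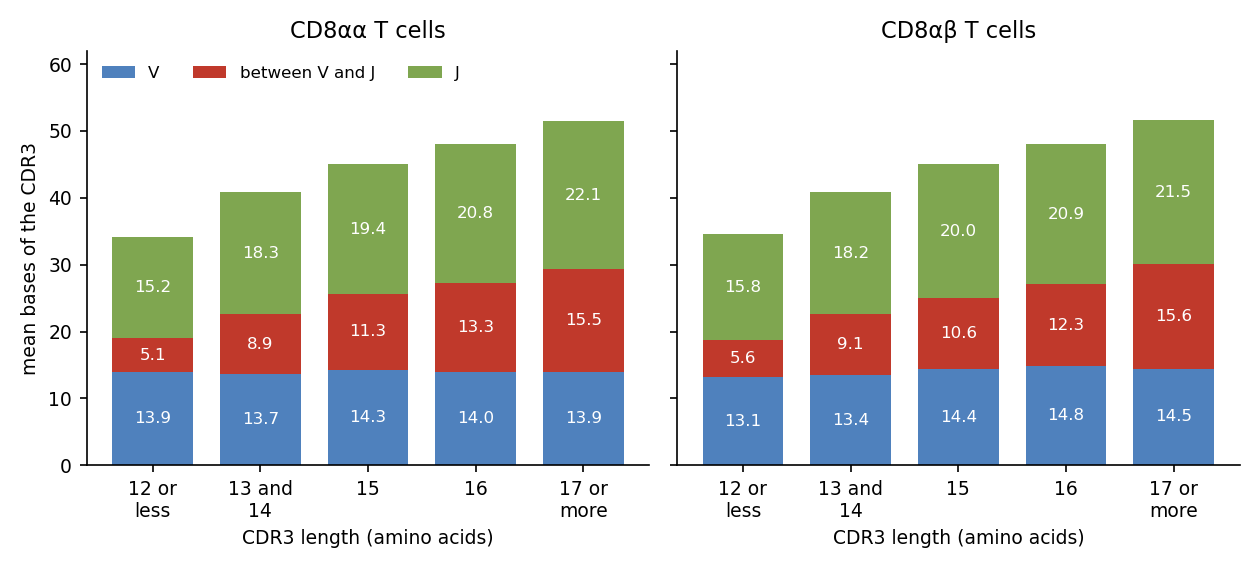
Mean number of CDR3 bases (y axis) from V (blue), between V and J (red) and from J (green) by CDR3 length class in aa (x axis). The part between V and J goes from 5.1 to 15.5 bases in CD8αα T cells and from 5.6 to 15.6 in CD8αβ T cells, while the V part stays between 13.1 and 14.8 bases.

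Trimming was lighter at the J end than in other clonotypes. Bases kept from V and J enter the length, so the trimming values are a description with no test. The J gene was untrimmed in 59 of 127 long CDR3s of CD8αα T cells (46.5%) against 42 of 210 others (20%), and in 136 of 297 of CD8αβ T cells (45.8%) against 114 of 618 (18.4%). It had lost 4 bases or more in 18.1% of long against 47.6% of other clonotypes of CD8αα T cells, and in 15.8% against 46.4% in CD8αβ T cells. The mean loss from J was 1.73 ± 2.03 bases in long and 3.45 ± 2.68 in other clonotypes of CD8αα T cells, and 1.65 ± 2.05 and 3.27 ± 2.42 in CD8αβ T cells. At the V end the libraries gave other values. V was untrimmed in 23.6% of long and 18.6% of other clonotypes of CD8αα T cells, and in 31.3% and 15.5% in CD8αβ T cells. The loss from V was 2.42 ± 2.03 against 2.67 ± 2.05 bases in CD8αα and 2.04 ± 1.83 against 3.01 ± 2.06 in CD8αβ T cells.

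P bases, which can be seen only next to an untrimmed end, were read at V or J in 38.6% of long and 19.05% of other clonotypes of CD8αα T cells and in 42.8% and 18.1% in CD8αβ T cells. At the J end they were found in 39 (30.7%) and 85 (28.6%) long CDR3s, and at the V end in 15 (11.8%) and 57 (19.2%). P bases count in the CDR3 length, so their rise with it is in part arithmetic and carries no test. Their share at the J end went with length in both libraries. It was 21.0% at 15 aa, 42.4% at 16 aa and 61.5% of 13 clonotypes at 17 aa or more in CD8αα T cells, and 25.9%, 31.7% and 38.5% in CD8αβ T cells. Long clonotype 3 of CD8αβ T cells, shown above, had an untrimmed TRBJ2-3 with 3 P bases, and the longest CDR3 with TRBV17 an untrimmed TRBJ2-7 with 2.

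A D gene was assigned in 120 of 127 long CDR3s of CD8αα T cells (94.5%) and 270 of 297 of CD8αβ T cells (90.9%), against 69.5% and 67.6% of other clonotypes. In those with a D gene, the D stretch was counted with any P bases at its ends, so it is not only what was kept of the germline gene. It held 9.48 ± 2.76 bases in long CDR3s of CD8αα and 9.004 ± 2.85 in those of CD8αβ T cells, against 7.71 ± 2.36 and 7.52 ± 2.26 in others. N bases at both joins together came to 3.02 ± 2.05 in long and 2.05 ± 1.78 in other clonotypes of CD8αα T cells, and to 3.05 ± 2.22 and 2.46 ± 2.02 in CD8αβ T cells. No N base at all was read in 12 of 120 long CDR3s (10.0%) and in 35 of 270 (12.96%), against 26.0% and 18.2% of others. Among clonotypes with a D gene, long CDR3s thus held 1.77 more bases in the D stretch and 0.970 more N bases in CD8αα T cells. In CD8αβ T cells they held 1.48 and 0.595 more. The longest CDR3, with TRBV4 and TRBJ2-1 in CD8αβ T cells, carried a D stretch of 19 bases, more than the 14 germline bases of TRBD2. It holds the whole TRBD2 sequence, with CC before it and GCC after it, which are palindromic to its ends.

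TRBD2, which has 14 bases to the 12 of TRBD1, was the first D hit in 74 of 120 long CDR3s of CD8αα T cells (61.7%) and 144 of 270 of CD8αβ T cells (53.3%), against 34.2% and 31.8% of others. The D hits were tied in 4.17% of long and 13.7% of other clonotypes with a D gene in CD8αα T cells. In CD8αβ T cells they were tied in 7.41% and 13.4%. The first hit was used for each, so the D gene is less certain in other clonotypes. Since TRBD2 lies beyond the TRBJ1 genes on chromosome 6, joins with TRBJ2 genes were looked at alone, a choice made after the values had been seen. Of long CDR3s with a TRBJ2 gene and a D gene, 72 of 87 (82.8%) in CD8αα and 137 of 199 (68.8%) in CD8αβ T cells had TRBD2, against 47.5% and 42.7% of others. TRBD2 was also listed with a TRBJ1 gene in 2 of 33 and 7 of 71 long CDR3s, with a mean of 5.5 and 7.43 D bases, against 10.4 and 10.02 with TRBJ2 genes. Long clonotype 3 of CD8αα T cells, with TRBJ1-4 and 5 D bases, is among them. Its D gene is therefore uncertain, though it is counted with TRBD2 throughout. The D gene and its trimming enter the length too, so these values carry no test. The D bases of 920 of 954 clonotypes (96.4%) were equal to the germline D gene at the positions given in the lists.

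Between the libraries, 0 of the 8 junction features tested among long CDR3s (0%) passed Fisher's exact test, with or without adjustment. These features were untrimmed V and J ends, V trimmed by 3 bases or more, J trimmed by 4 or more, P bases, an assigned D gene, TRBD2 and the TRBJ2 cluster. An untrimmed V end was 7.69 points less frequent in CD8αα T cells (-16.2 to 1.83), and TRBD2 8.33 points more frequent (-2.35 to 18.5). An untrimmed J end differed by 0.665 point (-9.51 to 10.96), and the TRBJ2 cluster, at 71.7% and 71.4%, by 0.273 point (-9.41 to 9.20).

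The residues between the 4 first and 4 last make up the variable middle of the loop, and long CDR3s held 950 of them in CD8αα and 2218 in CD8αβ T cells. CASS opened 79.5% of long and 73.3% of other CDR3s of CD8αα T cells and 75.4% and 75.9% in CD8αβ T cells. The 4 last residues came mostly from the J gene, with TLYF closing 23.6% and 28.3% of the long CDR3s and 13.3% and 15.2% of the others. By the middle base of each codon, 39.7% of the middle residues of long CDR3s of CD8αα T cells came from the D stretch, 35.4% from J, 15.4% from inserted bases and 9.58% from V. In CD8αβ T cells these shares were 36.7%, 37.0%, 15.2% and 11.1%.

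Alanine was more frequent and tyrosine and lysine were less frequent in the middle of long CDR3s of CD8αβ T cells than of others. They were 3 of the 18 residues tested (16.7%, Fisher's exact test with Benjamini-Hochberg adjustment). Alanine, a small residue, made up 9.02% of long and 6.37% of other middle residues (difference 2.65 points, 1.20 to 4.15, adjusted exact p = 0.00344). Tyrosine, an aromatic residue often found at receptor contacts, made up 4.06% and 6.34% (difference -2.28 points, -3.46 to -1.07, adjusted exact p = 0.00344). Lysine, which is basic, was found 4 times among 2218 residues and 24 times among 3092 (adjusted exact p = 0.0191). Alanine and tyrosine came mostly from the germline J genes, which encoded 114 of the 200 alanines and 82 of the 90 tyrosines in long CDR3s. Bases kept from J enter the length, so the tests of these residues do not show their use apart from length. With only codons between V and J counted, an alternative added after the data were seen, none of the 18 residues passed. The tyrosine difference was then 0.00595 point (adjusted exact p = 1), while alanine made up 4.25% of long and 3.01% of other residues (odds ratio 1.43 against 1.46 over all middle residues, adjusted exact p = 0.276) and lysine 0.347% and 1.20% (odds ratio 0.286 against 0.231, adjusted exact p = 0.21). All 3 calls were also lost among clonotypes of 2 reads or more, with differences of 3.39 points for alanine, -0.645 for lysine and -2.16 for tyrosine (adjusted p from 0.0696 to 0.104). At a limit of 16 aa they were lost too, with differences of 0.280, -0.500 and -1.77 points, and the tyrosine call was lost against CDR3s of 13 and 14 aa (-1.53 points). Of the 7 residue groups (acidic, basic, aromatic, aliphatic, polar, glycine and proline), none (0%) passed by Fisher's exact test, and 3 had an unadjusted p under 0.05. Aromatic residues made up 7.84% of long and 9.93% of other middle residues (adjusted exact p = 0.0621), basic ones 6.72% and 8.47% (0.0668), and glycine 23.1% and 20.8% (0.109).

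In CD8αα T cells none of the 18 residues (0%) passed Fisher's exact test after adjustment, and 1, tryptophan, had an unadjusted p under 0.05. Tryptophan (W), the largest aromatic residue, made up 49 of 950 middle residues of long CDR3s (5.16%) and 30 of 1088 of others (2.76%), a difference of 2.40 points (0.712 to 4.19, p = 0.00563, adjusted exact p = 0.101). A quasi-binomial fit over clonotypes, which allows for residues that share a clonotype, gave an adjusted p of 0.0442 for it. The D stretch, which enters the length, coded 47 of these 49 tryptophans, so neither test shows tryptophan use apart from length. Of the residue groups none of 7 (0%) passed, also at an unadjusted p under 0.05. Alanine made up 9.16% of long and 8.27% of other middle residues and tyrosine 5.68% and 7.44%, neither past the threshold (adjusted exact p = 0.934 and 0.610).

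Among long CDR3s tryptophan was more frequent in CD8αα than in CD8αβ T cells, the only residue of 18 that passed (5.56%). It made up 5.16% (3.92 to 6.75) against 2.61% (2.03 to 3.37) of middle residues, a difference of 2.54 points (1.10 to 4.24, adjusted p = 0.00947, Fisher's exact test), and the quasi-binomial fit over clonotypes gave 0.00149. Of the residue groups 2 of 7 passed (28.6%). Aromatic residues made up 11.8% against 7.84% (adjusted exact p = 0.00378), and polar residues 24.2% against 28.5% (adjusted p = 0.0456). Among other clonotypes tryptophan made up 2.76% and 2.30% of middle residues (adjusted exact p = 0.843), and aromatic residues 12.04% and 9.93% (adjusted p = 0.201). Polar residues made up 24.4% and 27.9% of them, a difference of -3.49 points (-6.43 to -0.431, adjusted exact p = 0.184), beside -4.33 points (-7.57 to -0.957) among long CDR3s. Threonine, a polar residue, was the only residue that passed among other clonotypes, at 4.60% and 7.73% (adjusted exact p = 0.00674). Among long CDR3s it made up 4.42% and 6.49% (adjusted exact p = 0.213). The lower polar share of CD8αα T cells was thus not particular to long CDR3s. The tryptophan difference among long CDR3s was 2.73 points with clonotypes of 2 reads or more (adjusted exact p = 0.0732) and 2.35 points at 16 aa or more (adjusted p = 0.543).

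Counted by clonotype, 48 of 127 long CDR3s of CD8αα T cells (37.8%, 29.8 to 46.5) held at least 1 tryptophan in the middle, and 57 of 297 of CD8αβ T cells (19.2%, 15.1 to 24.1). Of other clonotypes 13.8% and 11.3% did, over fewer middle residues. By reads, tryptophan was carried by 38.5% of long reads in CD8αα and 20.3% in CD8αβ T cells, against 8.27% and 17.1% of the reads of others. These shares rest on few clonotypes. Long clonotypes 2 and 3 of CD8αα T cells gave 121 and 88 of its 408 long reads with tryptophan. A single clonotype without it held 663 of the 1935 reads of others there. Of long clonotypes of CD8αα T cells, 27.3% of those with 10 reads or more held tryptophan and 41.0% of those with 1 read. The codon lay in D for 47 of the 49 tryptophans of CD8αα T cells and 52 of the 58 of CD8αβ T cells, and none lay in V or J. Among long CDR3s with TRBD2, 42 of 74 (56.8%) and 49 of 144 (34.0%) held tryptophan, and among those with TRBD1 4 of 46 (8.70%) and 5 of 126 (3.97%). Long CDR3s with TRBV16 held it in 15 of 23 clonotypes of CD8αα T cells (65.2%, 44.9 to 81.2) and 12 of 39 of CD8αβ T cells (30.8%, 18.6 to 46.4). These counts, and the motifs and reading frames that follow, were chosen after the values had been seen and carry no test.

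The germline TRBD2 sequence encodes tryptophan in 1 of its 3 reading frames, which reads DWGG, while the other frames read GTGG and GLGG. In TRBD1 the frames read GTGG, GQG and DRG. The run DWG was found in 31 long CDR3s of CD8αα T cells (24.4%, 17.8 to 32.6) and 30 of CD8αβ T cells (10.1%, 7.17 to 14.1), against 4.76% and 3.4% of others. Long clonotype 2 of CD8αα T cells and long clonotypes 2 and 4 of CD8αβ T cells, shown above, are 3 of them. The frame with tryptophan was used in 43 of 74 long CDR3s with TRBD2 in CD8αα T cells (58.1%, 46.7 to 68.7) and 53 of 144 in CD8αβ T cells (36.8%, 29.4 to 44.9). In other clonotypes it was used in 26 of 50 (52.0%) and 52 of 133 (39.1%). By value, the frame was thus used more in CD8αα T cells in both length classes, while TRBD2 as such was used more in long CDR3s of both libraries. Paired glycines (GG) were found in 32.3% of long CDR3s of CD8αα and 39.7% of CD8αβ T cells, against 15.7% and 16.02% of others. Long CDR3s hold more middle residues in which a run can lie, so the shares of DWG and GG by clonotype are not like for like. By residue, glycine made up 20.8% of long and 20.3% of other middle residues in CD8αα T cells, and 23.1% and 20.8% in CD8αβ T cells.

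**Figure D4:**
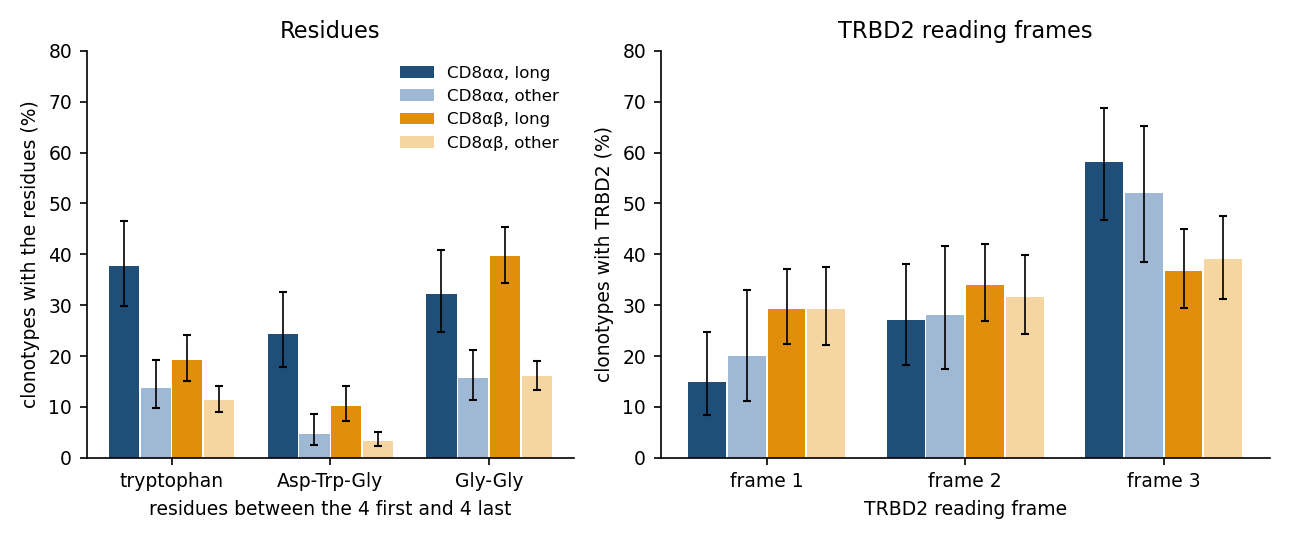
Left, share of clonotypes (%, y axis) with tryptophan, Asp-Trp-Gly or paired glycines between the 4 first and 4 last residues, and right, share of clonotypes with TRBD2 in each reading frame (%, y axis), in long and other clonotypes of both libraries, with 95% Wilson intervals. Tryptophan is in 37.8% of long CDR3s of CD8αα T cells against 11.3% to 19.2% in the remaining classes, and frame 3, the one with tryptophan, lies at 58.1% and 52.0% in CD8αα and at 36.8% and 39.1% in CD8αβ T cells. On the left, long CDR3s hold more middle residues in which these can be found.

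By median and by single reads, clone sizes of long CDR3s were near those of other clonotypes of their library. Clonotypes of 10 reads or more were more frequent among long CDR3s in CD8αβ T cells. In CD8αα T cells the median was 3 reads for long and 2 for other clonotypes. A single read was counted for 39 long clonotypes (30.7%) and 32.4% of others, and 10 reads or more for 22 (17.3%) and 15.2%. Neither of these 2 size features passed (0%), also at an unadjusted p under 0.05 (adjusted p = 0.809 for both, Fisher's exact test). In CD8αβ T cells the median was 1 read in both classes. A single read was counted for 173 long clonotypes (58.2%) and 57.0% of others (adjusted exact p = 0.722). Of the 2 features 1 passed (50%): 8 of 297 long clonotypes (2.69%) and 4 of 618 others (0.647%) had 10 reads or more, a difference of 2.05 points (0.385 to 4.61, adjusted p = 0.0479, Fisher's exact test). This call was lost at a limit of 16 aa, at 2.71 points (adjusted exact p = 0.0858), and against CDR3s of 13 and 14 aa, at 2.01 points (0.0655).

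The 5 largest long clonotypes of CD8αα T cells took 468 of the 1060 long reads (44.2%), and those of CD8αβ T cells 110 of 622 (17.7%). Those of CD8αα T cells had 150, 121, 88, 63 and 46 reads, in the order in which their sequences are shown above, so the largest paired TRBV4 with TRBJ2-1. Those of CD8αβ T cells had 41, 20, 18, 16 and 15 reads, and the largest paired TRBV12-2 with TRBJ2-1. The largest clonotype of either library was not among them, with 663 reads in CD8αα and 91 in CD8αβ T cells. The 18-aa CDR3 with TRBV17 had 26 reads, while the 18-aa CDR3 with TRBV2 and the 19-aa CDR3 with TRBV4 had 1 each. Between the libraries both size features of long clonotypes passed (100%), with 30.7% against 58.2% at a single read and 17.3% against 2.69% at 10 reads or more (adjusted p = 4.42e-07 for each, Fisher's exact test). Other clonotypes gave 32.4% against 57.0% and 15.2% against 0.647%, and the libraries differed in reads for each TRB clonotype (8.89 and 2.02).

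**Figure D5:**
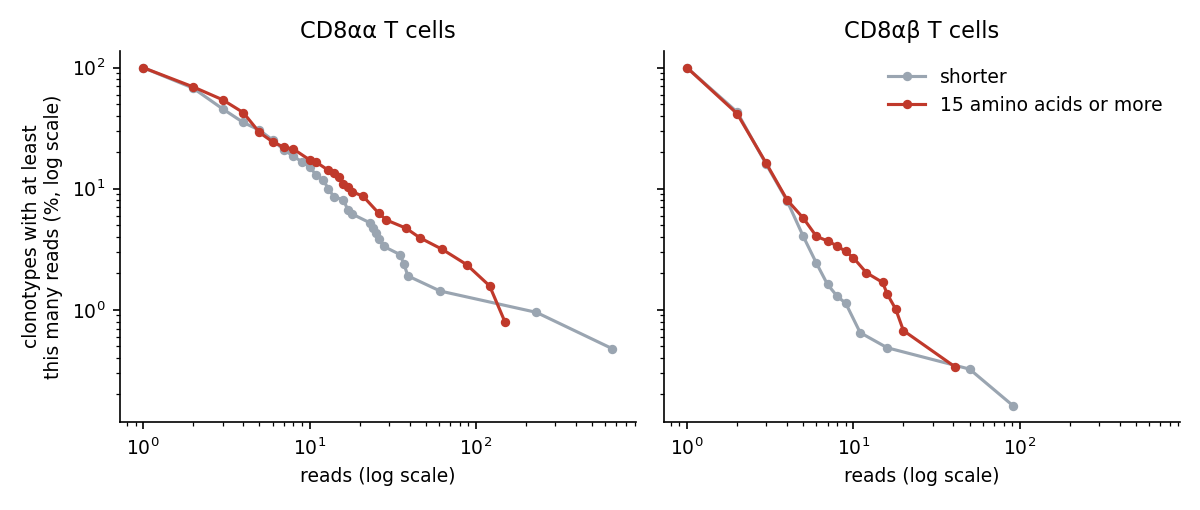
Share of clonotypes with at least a given number of reads (%, log scale, y axis) against that number (log scale, x axis) for long (red) and shorter CDR3s (grey) of both libraries. Long CDR3s reach 150 reads in CD8αα and 41 in CD8αβ T cells, and shorter ones 663 and 91.

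Whether a contrast between long and other CDR3s itself differed between the libraries was tested for the 8 J genes, the 2 V genes and the 1 clone size feature that passed in CD8αβ T cells. None of these 11 passed the likelihood ratio test of a logistic fit (lowest adjusted p = 0.145, n = 1252 clonotypes), and TRBJ1-4, TRBJ2-7 and TRBV15 had an unadjusted p under 0.05. The adjustment ran over 18 features, since 7 junction features entered it too, which are not printed because they make up the length. The residue contrasts were not tested in this way. A J gene or V gene called in CD8αβ T cells alone was therefore not shown to differ from CD8αα T cells.

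Long CDR3s found in both libraries, with the same V gene, J gene and amino acid sequence, numbered 3 of the 5 TRB clonotypes shared in this way. They were 2.4% of the 125 distinct long CDR3s of CD8αα and 1.01% of the 296 of CD8αβ T cells, against 0.962% and 0.324% of others. The pair of TRBV12-1 and TRBJ1-6, of 15 aa, had 29 reads in CD8αα and 2 in CD8αβ T cells, with the same nucleotides. TRBV13-1 with TRBJ1-4, of 16 aa, had 2 and 5 reads, also with the same nucleotides. TRBV13-2 with TRBJ2-3, of 15 aa, had 1 and 4 reads, was made with 1 nucleotide sequence in CD8αα and 2 in CD8αβ T cells, and the forms shown differ at 2 bases. They are shown because they are the only long receptors that the lists have in common.
TRBV12-1, TRBD1, TRBJ1-6, both libraries: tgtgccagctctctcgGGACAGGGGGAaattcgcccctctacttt
TRBV13-1, TRBD1, TRBJ1-4, both libraries: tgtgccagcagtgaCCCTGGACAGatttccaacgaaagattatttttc
TRBV13-2, TRBD1, TRBJ2-3, CD8αα: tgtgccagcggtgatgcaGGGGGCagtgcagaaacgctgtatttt
TRBV13-2, TRBD2, TRBJ2-3, CD8αβ: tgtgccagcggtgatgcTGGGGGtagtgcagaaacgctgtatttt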

How the data were processed

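CD8αα and CD8αβ T cells were sorted from the liver of TG mice, with 1 library of bulk RNA for each. The authors assembled clonotypes of all receptor chains with MiXCR (version 3.0.12), and the submitters' processing notes name mm10. The MiXCR command and read filters are not given in the sources used here. The authors deposited a raw read count per clonotype, with no normalization applied, and a fraction, which is that count divided by all reads listed over all chains (6133 reads in CD8αα and 3215 in CD8αβ T cells). Only the counts were used further, since shares were taken over TRB reads.

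From the deposited lists, TRB clonotypes were divided at 15 aa. Trimmed, palindromic and inserted bases were read from the reference points listed for each clonotype, where the V, D or J part includes its palindromic bases. Every CDR3 was in frame and open. The V and J parts overlapped in 2 and 6 clonotypes, and V hits were tied in 1 and 7, for which the first was used. All 38 segments matched a gene symbol in GENCODE M21 (GRCm38, chromosome 6).

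Two-sided Fisher's exact tests were run over clonotypes, or over residues, with Benjamini-Hochberg adjustment within each family, at a threshold of 0.05, for features with 10 or more clonotypes or residues. Python 3.11.15, numpy 2.4.6, pandas 2.3.3, scipy 1.17.1, statsmodels 0.14.6 and matplotlib 3.10.9 were used, and the tests were tested on simulated data. Tests on trimming, palindromic bases and D genes in long against other CDR3s were computed, but are not printed because these features enter the length. The germline bases of V and J genes enter it too, so the printed tests on these genes do not show their use apart from length. The same holds for residues that V, D or J bases encode. V genes, J genes and residues past the threshold were named, with the 3 V and J genes with most long clonotypes in each library, the 5 largest long clonotypes, the longest CDR3s and those shared. The long CDR3s, the features and this rule were chosen with earlier results of these data known. The alternatives were a minimum of 2 reads, clonotypes merged by V, J and amino acids, merging of CDR3s 1 nucleotide from a clonotype with 10 times the reads, leaving out each library's largest clonotype, shared clonotypes or tied V hits, a limit of 16 aa, comparison with 13 and 14 aa only, 3 residues left out at each end, and a quasi-binomial fit.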

Additional observations from a re-analysis of the deposited data

How the results depend on the processing

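Over all alternatives, 119 values that answer a comparison stayed in direction and call, or within 1.5 times as a count, while 16 moved and 1 became stronger. Mean differences in the parts of the CDR3 are among these values. They counted as unchanged when they moved by less than the SD over clonotypes, which is a wide limit. Counts of junction features, whose tests in long against other CDR3s are not printed, are included too. Leaving out the largest clonotype made the difference in the share of reads 10.1 points, and leaving out the largest long one -0.131 point. With 2 reads or more, the calls between long and other CDR3s of CD8αβ T cells were 0 V genes, 5 J genes and 0 residues, and between the libraries 0 residues. At a limit of 16 aa they were 1 V gene, 4 J genes, 0 residues and 0 size features in CD8αβ T cells, 1 V gene in CD8αα T cells and 0 residues between the libraries. Against 13 and 14 aa they were 1 V gene and 0 size features in CD8αβ T cells. With 3 residues left out at each end, 2 residues passed in CD8αα and 5 in CD8αβ T cells, the quasi-binomial fit called 1 in CD8αα T cells, and codons between V and J alone gave 0 in CD8αβ T cells, where the tyrosine difference turned to 0.00595 point. The minimum of 2 reads left 88 and 124 long clonotypes, and the limit of 16 aa left fewer, so these counts rest on fewer clonotypes. Beyond that, the cause was not tested. Among single genes and residues 419 values kept their call, 26 lost it, 5 gained it and 1 turned. No paired analysis was possible because each cell type had 1 library. The depth of 622 long reads in CD8αβ T cells, with a median of 1 read for each clonotype, limits what can be said of clone size there, and 127 long clonotypes in CD8αα T cells leave wide intervals.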

Other observations

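Long CDR3s were drawn from many V-J pairs. They used 81 pairs in CD8αα T cells, of which 52 held 1 long clonotype, and 144 pairs in CD8αβ T cells, of which 67 did. TRBV16-TRBJ2-7 and TRBV16-TRBJ2-5 led in CD8αα T cells with 6 long clonotypes each, and TRBV16-TRBJ2-1 in CD8αβ T cells with 14.

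Few long CDR3s had a close relative in their list. A CDR3 of the same length that differed at 1 residue was found for 9 of 124 distinct long amino acid sequences of CD8αα T cells (7.26%) and 30 of 295 of CD8αβ T cells (10.2%), against 11.3% and 22.8% of other sequences. Longer CDR3s have more positions at which they can differ, and the lists differ in size, so these shares are values only.

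The reciprocal Simpson index over long reads was 19.2 in CD8αα and 88.1 in CD8αβ T cells, and over the reads of other clonotypes 7.35 and 108.9.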
